A study of Mus musculus with 7 samples.

Results

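The transition from proB to preB cells was followed in mice that lack Erg and carry a heavy chain that is already rearranged, here called Erg Rescue, by setting the ATAC-seq peak list of Erg Rescue proB cells against that of Erg Rescue preB cells. Erg Rescue proB peaks with no Erg Rescue preB peak overlapping them by at least 1 bp were called lost, and Erg Rescue preB peaks with no Erg Rescue proB peak were called gained. Of 91471 Erg Rescue proB peaks 17515 were lost, and of 84453 Erg Rescue preB peaks 10869 were gained, which makes 28384 members among the 647973 peaks of the 7 libraries of the series. Each group was 1 library, so no comparison has a spread between mice and none was tested. Intervals in brackets are Wilson 95% intervals, which cover counting error alone and treat peaks as independent.

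Both Erg Rescue groups came from Rag1CreT/+;Ergdelta/delta;IgHVH10tar mice, written IgHVH10tar/+ in the methods, so that 1 Igh allele remained without the knock-in. Rag1Cre deletes the floxed Erg alleles from the common lymphoid progenitor on, and the IgHVH10tar allele is a knock-in that expresses a productive heavy chain from the endogenous Igh locus. The knock-in and the Erg deletion were thus common to both sides of the comparison. The libraries used for reference were WT pre-proB, proB and preB cells from Ergfl/fl mice without Cre, Erg KO pre-proB cells (Rag1CreT/+;Ergdelta/delta, no knock-in) and Erg Rescue pre-proB cells. Cells were sorted from bone marrow by surface markers, and proB and preB cells, both IgM-, were told apart by CD43, the product of Spn. Mice were between 6 and 18 weeks old, and how many were pooled for a library was not stated.

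Stages were taken from the sample titles, and the source names contradicted them in all 3 Erg Rescue libraries. The library titled Erg Rescue proB carries the source name preB, the library titled Erg Rescue preB carries the source name pre-proB, and the library titled Erg Rescue pre-proB carries the source name proB. The Igk locus held 224 peaks in Erg Rescue proB and 255 in Erg Rescue preB, against 80 in Erg Rescue pre-proB. In WT, where titles and source names do not conflict, Igk held 67 peaks at the pre-proB stage, 213 at proB and 228 at preB. The library with the source name pre-proB therefore had more Igk peaks than any of the 3 libraries titled pre-proB. At the Spn promoter the fold of the peak over its library's background was 24.7 in Erg Rescue proB and 15.3 in Erg Rescue preB, beside 22.3 in WT proB and 15.1 in WT preB. At the start of Ighm, in the locus of the knock-in, the −log10 q was 505 in Erg Rescue preB. That was nearer to the 590 of WT pre-proB than to the 136 of WT preB. The Erg gene body (chromosome 16, 95359169 to 95586593) held 35 and 34 peaks, of which 4 were lost and 4 gained, and peaks over a gene do not measure the deletion of part of it. Results under the source names, with the library titled Erg Rescue pre-proB as proB and that titled Erg Rescue proB as preB, stand in the closing section.

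In proB cells the heavy chain gene is assembled by V(D)J recombination, and a productive heavy chain pairs with the surrogate light chain, made of the products of Igll1, Vpreb1 and Vpreb2, to form the pre-B receptor. Signals from this receptor and from the IL-7 receptor drive a burst of division, after which preB cells leave the cycle and rearrange the light chain loci, Igk first. Cells lose the open chromatin of multipotent and lymphoid progenitors stepwise along this path, while EBF1, PAX5, E2A and other B-lineage factors hold the sites of B-cell genes open. An ATAC-seq peak marks a stretch of DNA open enough for the assay to cut, and its −log10 q measures how far the pileup of fragments at its summit stands above the background of its own library.

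The 5 lost and 5 gained peaks with the highest deposited scores are shown first, at most 1 for each nearest gene and without X, Y and 1 autosome, because these are the places where a strong peak of 1 stage had no counterpart at the other. Each summit is shown with the 50 bases on either side of it, from GRCm38, plus strand. Capitals mark matches, on either strand, to 16 short patterns of transcription factors listed with the motif results. The lost peaks were:
Plxdc2, chr2:16351226-16351326: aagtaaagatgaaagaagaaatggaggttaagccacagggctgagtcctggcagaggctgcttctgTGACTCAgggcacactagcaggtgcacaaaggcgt
Atp6v1c2, chr12:17329734-17329834: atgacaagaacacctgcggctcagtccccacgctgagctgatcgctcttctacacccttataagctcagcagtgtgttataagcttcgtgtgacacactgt
Tent5c, chr3:100463907-100464007: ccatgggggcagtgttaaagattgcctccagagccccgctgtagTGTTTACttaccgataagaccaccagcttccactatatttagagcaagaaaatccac
Gm12728, chr4:105937249-105937349: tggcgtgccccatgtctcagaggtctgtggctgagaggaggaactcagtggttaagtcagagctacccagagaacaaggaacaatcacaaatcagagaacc
Gap43, chr16:42188198-42188298: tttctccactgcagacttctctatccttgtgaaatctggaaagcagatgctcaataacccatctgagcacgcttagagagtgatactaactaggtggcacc

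The gained peaks were:
Sesn3, chr9:14077215-14077315: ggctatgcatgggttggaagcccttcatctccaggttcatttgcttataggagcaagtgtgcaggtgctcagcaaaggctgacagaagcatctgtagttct
Ttc7b, chr12:100372236-100372336: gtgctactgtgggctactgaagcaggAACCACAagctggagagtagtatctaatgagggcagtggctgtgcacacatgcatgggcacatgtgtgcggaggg
Zfp703, chr8:26568866-26568966: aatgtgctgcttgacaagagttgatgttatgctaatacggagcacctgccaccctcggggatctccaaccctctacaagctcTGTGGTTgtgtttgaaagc
Abra, chr15:42176235-42176335: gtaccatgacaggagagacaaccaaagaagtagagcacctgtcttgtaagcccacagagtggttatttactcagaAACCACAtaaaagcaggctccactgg
Id2, chr12:25398856-25398956: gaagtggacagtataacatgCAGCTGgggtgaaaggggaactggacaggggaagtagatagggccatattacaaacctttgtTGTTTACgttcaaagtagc

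The lost peak nearest to Plxdc2, which encodes a plexin-domain membrane protein, lay between genes 5028 bp from a transcription start site (TSS). It had a −log10 q of 130 and a summit pileup of 117 fragments in Erg Rescue proB. A peak stood there in all 3 pre-proB libraries and in neither WT proB nor WT preB, and its capitals are an AP-1 match. The lost peak near Atp6v1c2, a subunit gene of the vacuolar proton pump, had a −log10 q of 123, held no pattern and was found in the same 3 pre-proB libraries alone. The lost peak in an intron of Tent5c, which encodes a poly(A) polymerase, had a −log10 q of 117 and a FOXO match, and was also present in WT proB. The peaks 146765 bp from Gm12728 and 152403 bp from Gap43, both intergenic with a −log10 q of 113, had the same history as that of Tent5c. All 5 were thus open in the 3 pre-proB libraries and had no peak in WT preB.

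The gained peak with the highest score lay 197802 bp from the TSS of Sesn3, which encodes a stress-responsive sestrin, with a −log10 q of 72.7 and a summit pileup of 80 fragments in Erg Rescue preB. It was present in all 3 WT libraries and absent from Erg KO pre-proB and Erg Rescue pre-proB. The gained peaks in an intron of Ttc7b and between genes near Zfp703 and Abra had a −log10 q of 56.0, 54.7 and 53.5, and each of them overlapped a peak of WT preB and of no other library. Each of these 3 carries a RUNX match. The gained peak 301766 bp from Id2, whose product inhibits E proteins, had a −log10 q of 52.3, E2A and FOXO matches, and a peak in WT proB and WT preB. All 5 were therefore peaks of WT preB. In windows of this length, a RUNX match stood in 5.70% of all Erg Rescue proB peaks and 4.60% of all Erg Rescue preB peaks, an E2A match in 12% and 11.7%, a FOXO match in 1.25% and 1.37%, and an AP-1 match in 3.13% and 2.99%.

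Over all peaks, the lost share was 19.1% [18.9 to 19.4] of the Erg Rescue proB list and the gained share 12.9% [12.6 to 13.1] of the Erg Rescue preB list. Cut by score to the length of the shorter list, both shares were 15.8%, and among the strongest 40000 peaks of each library they were 12.6% and 12.8%. Among peaks with a −log10 q of at least 10, looked up in the full other list, 7.15% of 61742 were lost and 3.16% of 61272 gained, so the order of the shares depended on how peaks were chosen. Lost and gained peaks were weaker and narrower than the others. The median −log10 q was 5.63 for lost peaks and 29.9 for retained ones, and 5.72 for gained peaks against 34.7 for shared ones. The median width was 293 bp for lost and 558 bp for retained peaks, and 272 bp for gained against 557 bp for shared peaks. Lost peaks lay a median of 25937 bp from the nearest TSS, retained peaks 15511 bp. A promoter, the 1000 bp on either side of a TSS, was touched by 6.20% of lost and 20.3% of retained peaks, and by 4.19% of gained and 20.4% of shared peaks. Unshared peaks were thus mostly distal.

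The 2 directions differed in their strong peaks. Among Erg Rescue proB peaks with a −log10 q below 5, 54.3% were lost, and among those from 20 to 50, 7.40% [7.01 to 7.80] were lost. For Erg Rescue preB peaks the shares gained were 50.7% below 5 and 1.91% [1.71 to 2.14] from 20 to 50. With a −log10 q of at least 50 there were 194 lost peaks and 7 gained peaks. At 100 or more there were 11 lost peaks of 19879 and 0 gained peaks of 22480, and a count of 0 allows a share of up to 0.0133%. The lists were close in depth, with a background pileup of 3.49 fragments in Erg Rescue proB and 3.85 in Erg Rescue preB, and the lowest summit pileup that was called was 10 and 11. A place without a peak can therefore still hold some fragments, and its accessibility was not detectable at this depth rather than absent. Strong peaks that disappeared were more numerous than strong peaks that appeared.

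Lost peaks were more often peaks of the pre-proB libraries than of WT proB or preB. Of the 17515 lost peaks 64.3% [63.6 to 65.0] overlapped a WT pre-proB peak, 68.0% an Erg KO pre-proB peak and 69.2% an Erg Rescue pre-proB peak. Where overlap had to cover 50% of both peaks, the share in WT pre-proB was 40.5%. In WT proB, 37.0% [36.3 to 37.7] had a peak, and in WT preB 11.2% [10.8 to 11.7]. Retained peaks were found in these libraries at 79.6%, 79.5%, 80.3%, 90.5% and 87.5%, in the same order. The gap between lost and retained peaks was thus smallest in the 3 pre-proB libraries and widest in WT preB. The most frequent pattern, with 7021 lost peaks or 40.1%, was a peak in all 3 pre-proB libraries and in neither WT proB nor WT preB. A further 2786 had the same pattern with WT proB added, and 2601 had a peak in none of the other 5 libraries, with a median −log10 q of 4.93. Among the 4414 lost peaks with a −log10 q of at least 10, 84.1% [83.0 to 85.1] had a WT pre-proB peak and 8.63% [7.84 to 9.5] a WT preB peak.

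Gained peaks leaned the other way. In WT preB 47.0% [46.0 to 47.9] of the 10869 gained peaks had a peak, in WT proB 38.2% [37.3 to 39.1] and in WT pre-proB 22.0% [21.2 to 22.8]. Erg KO pre-proB held 26.6% of them and Erg Rescue pre-proB 28.5%. Shared preB peaks were found at 87.3% in WT preB, 90.6% in WT proB and 80.2% in WT pre-proB, so gained peaks were rarer in each of these libraries, and least so in WT preB. The most frequent pattern, 2982 gained peaks or 27.4%, was a peak in none of the other 5 libraries, and these had a median −log10 q of 5.04. WT preB alone held 1777, and WT proB with WT preB held 1605. Among the 1937 gained peaks with a −log10 q of at least 10, 80.5% [78.7 to 82.2] had a WT preB peak. The WT preB list was the shortest of the series, with 76465 peaks, which bounds how many peaks can be found in it.

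**Figure D1:**
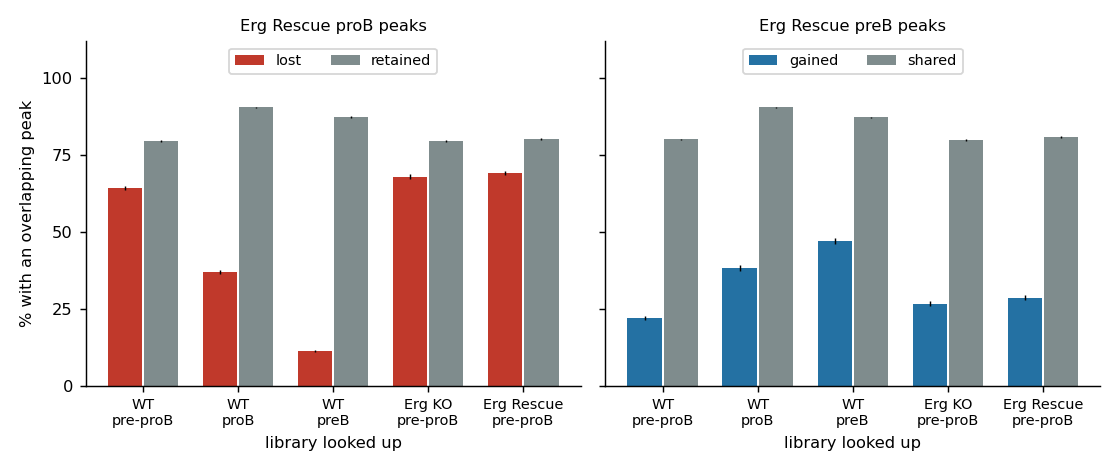
Share of peaks (vertical axis, %) that overlap a peak in each of 5 libraries (horizontal axis), for lost and retained Erg Rescue proB peaks on the left and gained and shared Erg Rescue preB peaks on the right. Bars are shares and error bars Wilson 95% intervals. The lost bars go from 64.3% in WT pre-proB to 11.2% in WT preB, and the gained bars from 22.0% to 47.0%.

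The same lists were read from the WT side, by the WT stages at which a place had a peak. Erg Rescue proB peaks found in WT at the pre-proB stage alone numbered 9578, and 75.0% [74.1 to 75.8] of them were lost at the Erg Rescue preB stage. Of 6710 peaks of WT pre-proB and proB, 44.8% [43.6 to 46.0] were lost, and of 3647 peaks of WT proB alone, 52.3% [50.7 to 53.9]. Where WT proB and preB both had a peak, 6.12% [5.69 to 6.58] of 11147 were lost, and where all WT stages had one, 1.70% [1.59 to 1.81] of 51898. Most peaks with a WT preB counterpart stayed, and so did many without one, such as 3705 of the 6710 peaks of WT pre-proB and proB. Peaks with no WT counterpart were lost at 70.9% [69.6 to 72.1] of 4874.

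Gains were most frequent, among places with a WT peak, at those of WT preB alone. Of 3386 Erg Rescue preB peaks found in WT preB alone, 59.9% [58.2 to 61.5] were gained. Of those of WT proB and preB 15.9% [15.2 to 16.5] were gained, of those of WT pre-proB alone 24.2% [22.7 to 25.7], of those of WT proB alone 37.9% [36.2 to 39.8], and of those of all WT stages 1.39% [1.29 to 1.5]. For WT pre-proB and proB the share was 10.6%, and for WT pre-proB and preB 20.5%. Peaks absent from WT were gained at 71.4% [70.1 to 72.7] of 4860. With a −log10 q of at least 10, the gained share was 43.6% [41.1 to 46.2] for WT preB alone and 7.08% [5.38 to 9.26] for WT pre-proB alone. The median −log10 q differs between these classes, from 4.93 for proB peaks with no WT counterpart to 56.1 for those of all WT stages, and its part in the shares was not tested beyond that cut.

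**Figure D2:**
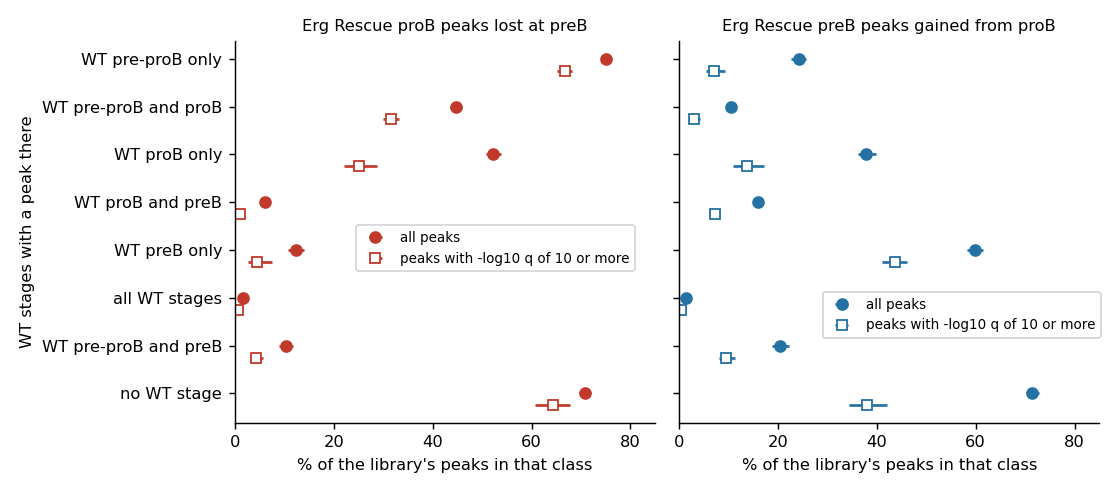
Share lost of Erg Rescue proB peaks (left) and share gained of Erg Rescue preB peaks (right), in % on the horizontal axes, by the WT stages that had a peak at the same place. Filled circles are all peaks, open squares peaks with a −log10 q of at least 10, and bars Wilson 95% intervals. Peaks of WT pre-proB alone are lost at 75.0%, and peaks of WT preB alone are gained at 59.9%.

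Peaks present at both Erg Rescue stages differed in strength between them by the same classes. The log2 ratio of the preB fold to the proB fold, each over its own library's background, had a median of 0.14 over 73956 retained peaks, with quartiles of -0.16 and 0.42. It was -0.31 for peaks of WT pre-proB alone and -0.33 for those of WT pre-proB and proB. For peaks of WT proB and preB the median was 0.37, and for those of WT preB alone 0.47. Among retained peaks, those of earlier WT stages thus had a lower preB fold than proB fold at the median, and those of later WT stages a higher one.

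The WT transition shares no library with the Erg Rescue transition, and was set beside it. Of the 6474 lost peaks with a WT proB peak, 75.9% [74.8 to 76.9] had no WT preB peak, against 8.14% [7.93 to 8.35] of the 66928 retained peaks with a WT proB peak. Of the 5106 gained peaks with a WT preB peak, 48.5% [47.2 to 49.9] had no WT proB peak, against 4.84% [4.67 to 5.0] of the 64247 shared ones. In all, 26.7% of WT proB peaks had no WT preB peak and 10.7% of WT preB peaks no WT proB peak. Places that were lost or gained in Erg Rescue were thus more often lost or gained in WT than the places that were not. Lost and gained peaks were also the weaker ones, and the part of strength in this was not tested.

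The surrogate light chain genes kept their promoter peaks with a lower fold at the preB stage. At Igll1, which encodes the lambda5 chain, the fold of the promoter peak was 114 in Erg Rescue proB and 86.7 in Erg Rescue preB. At Vpreb1 it was 25.2 and 16.9, and at Vpreb2 9.35 and 5.16. WT showed the same direction with wider steps, with folds of 141 and 81.3 at Igll1, 55.6 and 21 at Vpreb1, and 36.6 and 7.01 at Vpreb2. The pre-B receptor list as a whole had a promoter peak for 13 of its 14 genes at both Erg Rescue stages. Of its 155 proB peaks 11.6% [7.47 to 17.6] were lost, and of its 147 preB peaks 8.16% [4.73 to 13.7] were gained, against 19.1% and 12.9% of all peaks. The interval of the gained share includes that of all peaks. The median promoter log2 ratio in Erg Rescue was 0.36, against 0.14 over the 13715 coding genes with a peak at both stages. In WT the list had a median of 0.02, below the 0.14 of all coding genes there. In Erg Rescue Lyn lay above 0.14 at 0.45, and Blk, a Src kinase of B cells like Lyn, at 0.72. Syk, the kinase that acts next, lay at 0.54. In WT Lyn, Blk and Syk stood at 0.53, 0.45 and 0.93. Plcg2, a phospholipase downstream of these kinases, had the most lost peaks of the list with 5, and 2 gained ones, and Lyn had 4 lost and 2 gained. Syk had 3 lost and 4 gained peaks, and Blk 3 lost and 0 gained.

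The genes of V(D)J recombination kept nearly all their peaks, apart from Dntt. Dntt encodes terminal transferase, which adds untemplated nucleotides at heavy chain joins. Its promoter peak ran from 41029014 to 41029370 on chromosome 19 in Erg Rescue proB, with a fold of 4.45 and a −log10 q of 7.10, and had no counterpart in Erg Rescue preB. In WT the −log10 q there was 137 at the pre-proB stage and 4.24 at the proB stage, and WT preB had no peak. Erg KO and Erg Rescue pre-proB cells had 31.8 and 34.4. In both genotypes a weak proB peak was the last one detected. The RefSeq promoter of Dntt (300 bases around the start, GRCm38.p6, plus strand), shown because its peak was lost in both genotypes between pre-proB and preB, held none of the 16 patterns:
Dntt, chr19:41029025-41029324: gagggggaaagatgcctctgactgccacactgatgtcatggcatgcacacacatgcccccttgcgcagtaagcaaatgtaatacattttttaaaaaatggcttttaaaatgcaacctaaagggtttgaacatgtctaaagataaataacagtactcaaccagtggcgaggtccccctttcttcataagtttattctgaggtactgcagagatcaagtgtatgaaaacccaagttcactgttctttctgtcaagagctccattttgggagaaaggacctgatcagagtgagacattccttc

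Rag1 and Rag2, the recombinase genes, had promoter folds of 45.7 and 22.1 in Erg Rescue proB and of 67.9 and 34.7 in Erg Rescue preB. Their log2 ratios of 0.57 and 0.65 stood above the 0.14 of all coding genes, beside 0.30 and 0.13 in WT. Rag1 also had 3 gained peaks and 0 lost ones, the strongest with a −log10 q of 11.9, and 1 of the 3 had a WT preB peak. Over the list of 10 genes, 1 of 31 proB peaks was lost, or 3.23% [0.572 to 16.2], and 8 of 37 preB peaks were gained, or 21.6% [11.4 to 37.2]. The intervals include the shares over all peaks for gains and exclude the 19.1% for losses, with few peaks behind both.

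The light and heavy chain loci gained more peaks than they lost. At Igk (chromosome 6, 67555497 to 70726966), the light chain locus that rearranges in preB cells, 4.91% [2.76 to 8.58] of 224 proB peaks were lost and 20.8% [16.3 to 26.2] of 255 preB peaks were gained. Over all peaks these shares were 19.1% and 12.9%. Of the 53 gained Igk peaks 52 lay in the V segments, and 27 had a WT preB peak. At Igh (chromosome 12, 113254830 to 116000461) the peak number was 219 in Erg Rescue proB and 242 in Erg Rescue preB, with 32 lost and 62 gained. These were 14.6% [10.5 to 19.9] of the proB and 25.6% [20.5 to 31.5] of the preB peaks of Igh. The interval of the lost share includes the 19.1% of all peaks. Of the 62 gained, 52 lay among the V segments and 12 had a WT preB peak. WT went from 206 Igh peaks in proB to 147 in preB cells. The knock-in sits in Igh and reads were placed on the reference, so knock-in and stage-related changes at Igh cannot be told apart here. The Ighm constant region start lay under a peak with a fold of 18.9 in Erg Rescue proB, from 113418407 to 113426089, and with a fold of 69.1 in Erg Rescue preB, where the peak ran on from 113415381 to 113428235. That preB peak also covers the start of Ighd, so the values of Ighm and Ighd are not independent. WT had folds of 12.6 and 27.0 at Ighm. The −log10 q there was higher before the proB stage, at 590 in WT, 579 in Erg KO and 634 in Erg Rescue pre-proB cells. It was 81.4 in Erg Rescue proB and 505 in Erg Rescue preB, beside 52.2 and 136 in WT.

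The other receptor loci held few peaks. Igl held 14 proB and 16 preB peaks, with 1 lost and 4 gained. At Tcrb, 15 of 36 proB peaks were lost, or 41.7% [27.1 to 57.8], 14 of them peaks of WT pre-proB, and 1 of 21 preB peaks was gained. At Tcrg 4 of 18 were lost and 0 of 14 gained. The joint Tcra and Tcrd locus had 14 lost and 16 gained peaks, and its numbers of 57 and 59 peaks were close. The T-cell receptor loci did not share a direction.

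The IL-7 and progenitor cytokine receptor list kept all 11 promoter peaks. Of its 103 proB peaks 17.5% [11.3 to 25.9] were lost, near the 19.1% of all peaks, and 8.33% [4.28 to 15.6] of its 96 preB peaks were gained. Kit, the stem cell factor receptor, had a promoter fold of 25.2 in Erg Rescue proB and 19.6 in Erg Rescue preB, against 46.7 and 14.2 in WT. At Il7r the folds gave a log2 ratio of 0.03. Jak1, a kinase bound to the IL-7 receptor, had 5 lost and 3 gained peaks. The transcription factor genes it signals to, Stat5a and Stat5b, had 4 and 3 lost peaks and 1 and 0 gained ones. Flt3, a receptor of lymphoid progenitors, had 3 lost and 1 gained.

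B-lineage transcription factor genes all kept a promoter peak and differed in their distal peaks. Ikzf1, which encodes Ikaros, had 8 lost and 0 gained peaks, the strongest with a −log10 q of 9.46. Of the 8, 7 were peaks of WT pre-proB and 4 were peaks of WT preB. Bach2, a repressor of plasma cell fate, had the most of the list in both directions, with 24 lost and 18 gained. Ebf1 had 13 lost and 9 gained peaks, Pax5 7 and 5, Foxo1 6 and 6, and Runx1 8 and 10. Lef1 had 3 lost and 5 gained peaks, and Tcf3, the gene of E2A, 0 lost and 3 gained. Promoter log2 ratios ranged from -0.79 at Myb to 0.62 at Pax5. Myb, a factor of cycling progenitors, had a promoter fold of 39.0 in Erg Rescue proB and 22.5 in Erg Rescue preB, and 23.8 and 26.3 in WT, but its proB and preB peaks began and ended at different places. Over the list 21.4% [17.4 to 26.0] of 346 proB peaks were lost and 17.7% [13.9 to 22.1] of 334 preB peaks gained. The lost share was near the 19.1% of all peaks and the gained share above the 12.9%. Bach2 alone held 18 of the 59 gained peaks and 55 of the 334 preB peaks, so the higher gained share rests largely on 1 gene.

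The regulators of the preB stage likewise kept all 13 promoter peaks. Ikzf3, which encodes Aiolos, had a promoter fold of 16.9 in Erg Rescue proB and 32.8 in Erg Rescue preB, and of 12.6 and 27.2 in WT. Spib, an ETS factor of B cells, had folds of 126 and 165 in Erg Rescue and 83.3 and 174 in WT. Irf8 had 10 lost and 2 gained peaks and its relative Irf4, which opens the light chain loci together with IRF8, had 8 lost and 4 gained. Mef2c, a factor of B-cell survival, had 14 lost and 20 gained, Foxp1 17 and 18, and Nfkb1 3 and 2. The list lost 14.7% [11.6 to 18.6] of 394 proB peaks and gained 13.3% [10.2 to 17.1] of 377 preB peaks. Beside 19.1% and 12.9% of all peaks, the lost share was lower and the gained share near the rest.

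Among cell cycle genes Btg1, an antiproliferative gene, had 3 lost and 11 gained peaks, and 10 of the 11 gained had a WT preB peak. Myc had 12 lost and 12 gained, and the strongest lost peak there had a −log10 q of 89.8 against 21.1 for the strongest gained peak. Cdk6, the kinase partner of D cyclins, had 7 lost and 3 gained, and Mycn 4 and 2. Cdkn1b, the inhibitor p27, had 3 lost and 1 gained peak. All 12 genes kept their promoter peak at both stages. Of 206 proB peaks of the list 15.5% [11.2 to 21.1] were lost, and of 206 preB peaks 18.4% [13.7 to 24.3] were gained. The interval of the lost share includes the 19.1% of all peaks, and that of the gained share lies above the 12.9%. Myc and Btg1 held 12 and 11 of the 38 gained peaks, so the higher gained share rests largely on these 2 genes.

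Genes of the B-cell surface and of maturation lost fewer peaks than the rest. Of 15 genes 10 had more gained than lost peaks, 3 had more lost and 2 had equal numbers. Over all 17460 genes with a peak nearby 3175 had more gained, 6066 more lost and 8219 equal numbers. The list lost 9.59% [5.80 to 15.5] of 146 proB peaks and gained 16.3% [11.3 to 23.0] of 153 preB peaks. The lost share was below the 19.1% of all peaks, and the interval of the gained share includes the 12.9% of all. Ms4a1, which encodes CD20, had a promoter fold of 24.3 in Erg Rescue proB and 67.7 in Erg Rescue preB, a log2 ratio of 1.48. In WT the folds there were 56.5 and 66.6, so the Erg Rescue proB library was the low one. Cr2, the complement receptor CD21, had 0 lost and 6 gained peaks, 4 of them with a WT preB peak. Cd74, the invariant chain, had 1 lost and 3 gained. S1pr1, which guides cells out of the marrow, had 4 lost and 5 gained, and Ccr7, used for homing, had 3 lost and 0 gained.

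Of the genes used to sort the cells, Ptprc, which encodes CD45 (B220), stood out in distal peaks with 1 lost and 18 gained, 11 of the gained with a WT preB peak. The 18 lay within 587 kb, and the strongest had a −log10 q of 26.1. Within the gene body of Ptprc and 10000 bp on either side, the net gain was 1. Cd24a had 6 lost and 3 gained, and Ighd 1 lost and 4 gained. Spn had 1 lost and 0 gained. Itgax (CD11c) and Klrb1c (NK1.1), used to exclude dendritic and NK cells, had weak promoter peaks in Erg Rescue proB, with a −log10 q of 9.46 and 3.0. No peak stood at either in Erg Rescue preB. In the 3 pre-proB libraries the same promoters had a −log10 q of 164 to 205 and of 231 to 375.

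Promoters as a whole changed little. Of 14220 coding genes with a promoter peak in Erg Rescue proB, 497 had none in Erg Rescue preB, which is 3.50% [3.21 to 3.81]. Of 13853 with one in Erg Rescue preB, 130 had none in Erg Rescue proB, which is 0.938% [0.791 to 1.11]. By source name the order turned, with 447 lost and 518 gained. Of the genes that lost a promoter peak 52.5% had one at the WT pre-proB stage, 63.6% at WT proB and 12.5% at WT preB. Of those that gained one 45.4% had one in WT preB and 55.4% in WT proB. The promoter peaks involved were weak, with a median −log10 q of 6.35 for losses and 5.72 for gains. For 21 of the 497 and 20 of the 130 the peak itself overlapped a peak of the other library that ended short of the promoter.

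**Figure D3:**
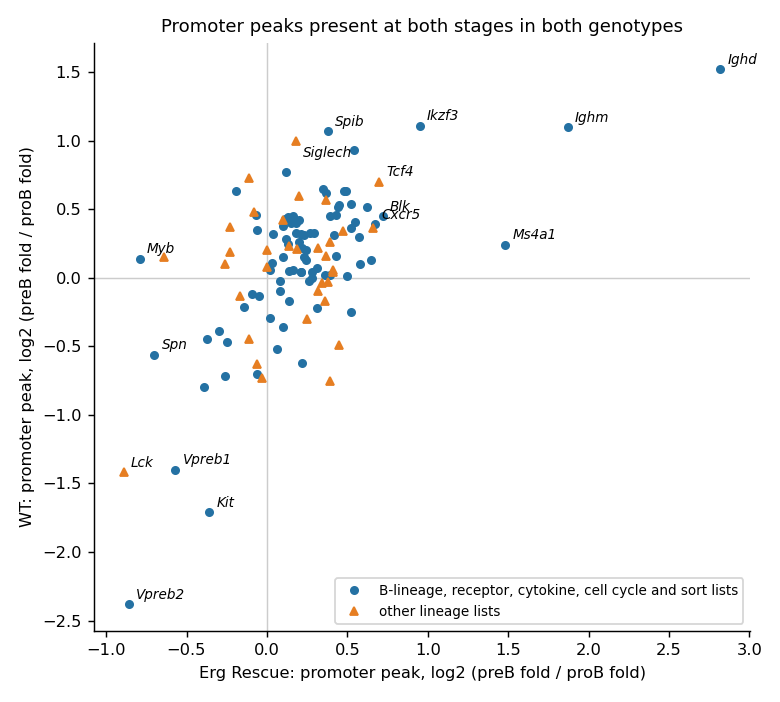
Log2 ratio of the preB to the proB fold of the promoter peak, in Erg Rescue (horizontal axis) and WT (vertical axis), for 121 genes of the fixed lists with a value in both; each point is 1 gene and 1 pair of libraries per axis. The ratio is above 0 in both genotypes for 73 genes and below 0 in both for 18. It has opposite signs for 27 genes and is 0 in at least 1 genotype for 3. The median over all coding genes is 0.14 in Erg Rescue and 0.14 in WT. Vpreb1, Vpreb2, Kit, Lck and Spn lie at the lower left and Ighm, Ighd and Ikzf3 at the upper right.

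Most genes of the other lineages' lists had a promoter peak, and the few promoter peaks that were lost were weak. In Erg Rescue proB and preB these were 9 and 9 of 10 plasmacytoid dendritic genes, 8 and 9 of 10 stem and progenitor genes, 6 and 5 of 10 T-cell genes, 6 and 5 of 10 myeloid genes, and 5 and 5 of 10 erythroid genes. Id2 and Gata3 had strong ones, with a −log10 q of 989 and 714 in Erg Rescue proB. The list of NK and innate lymphoid genes had 7 promoter peaks in Erg Rescue proB and 4 in Erg Rescue preB, and lost those of Tbx21, Zbtb16 and Klrk1, with a −log10 q of 9.46, 7.10 and 3.0. Tbx21 and Zbtb16 encode transcription factors of innate lymphocytes and Klrk1 an activating NK receptor. Cd3g, a chain of the T-cell receptor complex, and Lyz2, the lysozyme gene of myeloid cells, also lost promoter peaks, with a −log10 q of 4.26 and 9.46. Zbtb16, Klrk1, Cd3g and Lyz2 had a promoter peak in all 3 pre-proB libraries, while Tbx21 had none there and one in both WT proB and WT preB. Ly6a, the gene of Sca-1, had a promoter peak in Erg Rescue preB alone, with a −log10 q of 5.04. Among defining genes, the promoters of Cd3d, Cd3e, Ncr1, Gzmb, S100a8 and Gata1 had no peak at either stage, while those of Lck, Eomes, Csf1r, Itgam, Klf1 and Gfi1b had one at both. The part of other cells within the sorted populations in these values was not tested.

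Peaks nearest to genes of some of these lists were lost more often than peaks in all. The T-cell list lost 33.3% [24.6 to 43.4] of 93 proB peaks, the stem and progenitor list 27.6% of 105 and the NK and innate lymphoid list 26.6% [18.7 to 36.3] of 94, against 19.1% of all. The interval of the last includes 19.1%. In the T-cell list Tox and Gata3 held 11 and 9 of 31 lost peaks and 30 and 20 of 93 proB peaks. In the stem and progenitor list Meis1 and Mecom held 9 and 7 of 29 lost peaks and 28 and 17 of 105 proB peaks. The higher lost shares of both lists thus rest largely on these genes. The T-cell list also gained 22.8% [14.9 to 33.2] of 79 preB peaks, against 12.9% of all. Themis held 9 of its 18 gained peaks and 17 of the 79 preB peaks, so this higher share rests largely on 1 gene. The stem and progenitor list gained 10.5% and the NK and innate lymphoid list 13.2%. Tox, a regulator of T and innate lymphoid cells, had 11 lost and 2 gained peaks, and Gata3 9 lost and 1 gained. Meis1 and Mecom, both stem cell factors, had 9 and 7 lost peaks with 2 and 0 gained. Tal1 had 4 lost and 0 gained, Hlf 3 and 0, Tcf7 4 and 1, Zbtb16 3 and 0, and Rora 3 and 1. Id2 had 10 lost and 6 gained, and Nfil3 3 and 2. All 7 lost peaks of Mecom and 6 of the 9 of Gata3 were WT pre-proB peaks.

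Some genes of these lists went the other way. Themis, of T-cell selection, had 2 lost and 9 gained peaks, and 1 of the 9 had a WT preB peak. Csf3r had 1 lost and 5 gained, all 5 with a WT preB peak, and Lmo2 had 2 lost and 5 gained. Of the plasmacytoid dendritic genes Runx2 had 11 lost and 2 gained peaks and Tcf4 13 and 8, and the list lost 19.7% [14.3 to 26.7] of 157. The myeloid list lost 11.5% [5.67 to 21.8] of 61 and the erythroid list 17.9% [7.88 to 35.6] of 28. The intervals of these last 3 lists include the 19.1% of all peaks.

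Counted over the genome, 31 genes had at least 10 more lost than gained peaks nearest to their TSS and 27 at least 10 more gained than lost. The strongest net losses were at Prl2c3, of the prolactin family, with 33 lost and 7 gained, and at Tent5c with 19 and 0. Prl2c3 has near-identical neighbours, its lost peaks had a median −log10 q of 3.61, and reads that fit several copies make its count uncertain. Tent5c went from 29 to 12 peaks, beside 13 and 8 in WT, and its lost peaks spanned 191 kb. Eepd1 had 14 lost and 0 gained peaks, the strongest with a −log10 q of 99.8, and 12 of them were WT pre-proB peaks while none was a WT proB or preB peak. It went from 21 to 6 peaks in Erg Rescue and stood at 4 and 5 in WT. The Erg Rescue proB library thus held Eepd1 peaks that WT proB had not.

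Slco3a1, a transporter gene, had 13 lost and 0 gained peaks, and all 13 were peaks of each of the 3 pre-proB libraries. It went from 18 to 5 peaks in Erg Rescue, near the 19 and 5 of WT. Mki67, the gene of the proliferation marker Ki-67, had 13 lost and 0 gained, spread over 586 kb, and went from 23 to 10 peaks in Erg Rescue and from 29 to 8 in WT. Hs6st1 had 14 lost and 1 gained and Klf14 14 and 1. Smad7, an inhibitor of TGF-beta signals, and Zbtb20 had 16 and 4 each, and St6galnac5 15 and 3. Of these 10 genes 9 had fewer peaks at preB than at proB in WT as well, the exception being Eepd1. The WT preB list was also the shorter, with 76465 peaks against 91668 in WT proB. The share of all genes with fewer peaks in WT preB was not counted.

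The gained peaks of the 10 genes with the largest net gain were spread over 291 to 1560 kb each. Ttll7, of the tubulin ligase family, had 4 lost and 37 gained peaks over 835 kb and went from 41 to 73 peaks, beside 20 and 37 in WT. Lrrn3 had 6 lost and 30 gained over 1370 kb, and Pcdh9, a protocadherin gene, 6 and 26 over 1560 kb. Their gained peaks were weak, with a median −log10 q of 6.43, 6.43 and 5.38, and few were seen elsewhere. Of the 37 at Ttll7 6 had a WT preB peak, of the 30 at Lrrn3 10, and of the 26 at Pcdh9 11. Lmo4, a LIM-only regulator, had 6 lost and 24 gained, 16 of the gained with a WT preB peak. Zfp703 had 1 lost and 18 gained, 13 with a WT preB peak. The gains at Lmo4, Zfp703 and Ptprc were thus more often WT preB peaks than those at Ttll7.

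Abra had 0 lost and 15 gained peaks, and 4 of the 15 were WT preB peaks. Tmtc1 had 1 lost and 16 gained, Zfp608 7 and 21, and Marcks 4 and 18. In WT 9 of these 10 genes had more peaks at preB than at proB, and Tmtc1 had 31 at both. The share of all genes with more peaks in WT preB was not counted. Counted within the gene body and 10000 bp on either side, in place of the nearest TSS, most of these gains lay outside, with 2 net gained at Ttll7, 1 at Ptprc and 11 at Tmtc1, and Zfp608 turned to a net loss of 4 (-4). Of the losses, the net count went from -26 to -3 at Prl2c3, from -13 to -2 at Hs6st1, from -13 to -5 at Mki67, from -12 to -2 at Smad7 and from -13 to 1 at Klf14, while Tent5c, Eepd1, Slco3a1 and Zbtb20 had -11, -12, -10 and -10.

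**Figure D4:**
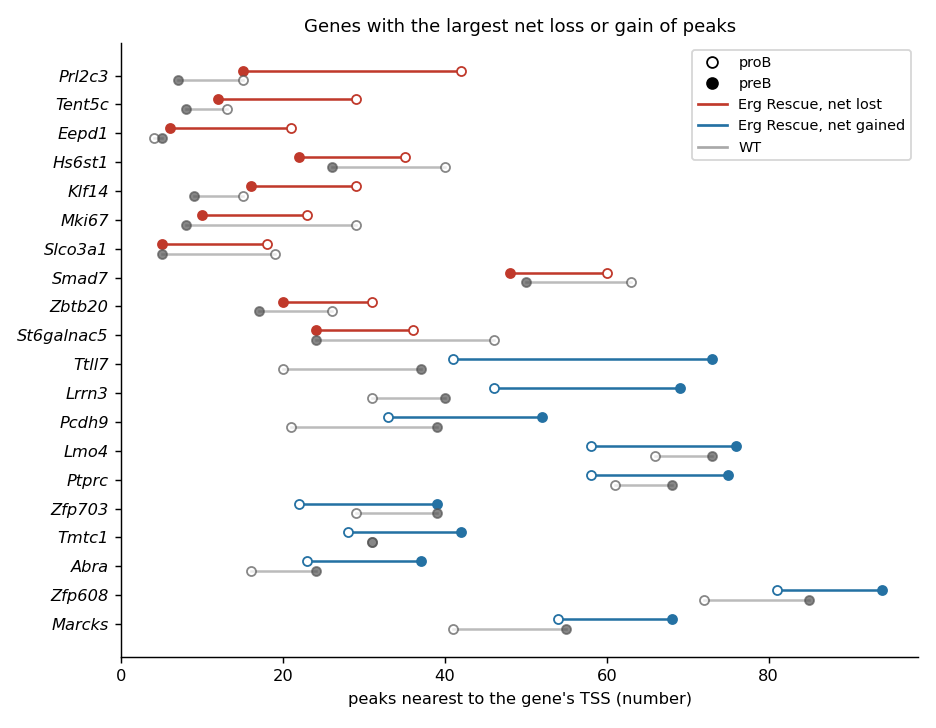
Number of peaks nearest to the TSS (horizontal axis) at proB (open) and preB (filled) for the 10 genes with the largest net loss and the 10 with the largest net gain in Erg Rescue (coloured lines), beside WT (grey lines); each point is 1 library. Eepd1 goes from 21 to 6 in Erg Rescue and from 4 to 5 in WT, and Ttll7 from 41 to 73 and from 20 to 37.

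Short sequence patterns were searched on both strands within 100 bp of each summit, each beside its own letters in reverse order as a measure of base composition. Of 16 patterns the RUNX pattern TGTGGTT differed most between lost and gained peaks, with a match in 14.7% [14.1 to 15.2] of the lost, 8.83% [8.63 to 9.04] of the retained and 6.34% [5.90 to 6.81] of the gained. Its reversed letters stood in 3.15%, 2.50% and 2.83%. RUNX factors, RUNX1 first among them, act in blood stem cells and in early lymphoid cells. Within peaks whose WT counterpart was pre-proB alone, 18.2% [17.3 to 19.1] of the lost and 13.3% [12 to 14.7] of the retained held the pattern. A pattern match is not evidence of binding.

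To show such matches in context, the 3 highest scoring lost peaks with a RUNX match within 50 bp of the summit and a WT peak at pre-proB alone were taken after the values were seen, under the same limits as above. They lay between genes near Diaph3, in an intron of Ehf and between genes near Ndufs4, with a −log10 q of 80.0, 70.5 and 69.1, and all were peaks of the 3 pre-proB libraries:
Diaph3, chr14:86215849-86215949: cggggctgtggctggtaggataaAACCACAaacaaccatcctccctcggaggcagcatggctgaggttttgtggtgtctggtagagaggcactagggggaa
Ehf, chr2:103290862-103290962: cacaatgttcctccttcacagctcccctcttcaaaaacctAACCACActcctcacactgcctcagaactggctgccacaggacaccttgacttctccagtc
Ndufs4, chr13:114188891-114188991: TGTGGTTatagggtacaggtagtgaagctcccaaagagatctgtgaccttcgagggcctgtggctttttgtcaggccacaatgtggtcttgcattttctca

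The EBF1 pattern TCCCNNGGG stood in 4.23% [3.94 to 4.54] of the lost, 6.96% [6.78 to 7.14] of the retained and 5.67% [5.25 to 6.12] of the gained, a difference of -1.44 percentage points between lost and gained [-1.97 to -0.92]. Its reversed letters stood in 2.71%, 3.48% and 3.09%. EBF1 commits cells to the B lineage and opens chromatin at its sites. Lost peaks of WT pre-proB alone held it at 1.66% [1.39 to 1.98], below their 2.27% for the reversed letters, while gained peaks with a WT preB peak held it at 6.40% [5.76 to 7.11]. The octamer ATGCAAAT, bound by OCT1 and OCT2, was at 2.31% of lost, 3.05% of gained and 4.01% [3.51 to 4.59] of gained peaks with a WT preB peak, and at 0.863% [0.674 to 1.11] of lost peaks of WT pre-proB alone. Retained peaks of WT pre-proB alone were low in both as well. They held EBF1 at 1.79% [1.33 to 2.41] and the octamer at 1.17% [0.809 to 1.68]. These intervals overlap those of the lost peaks of that class, and a difference with loss was not tested.

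The AP-1 pattern TGANTCA stood in 7.45% [7.07 to 7.85] of the lost and 6.68% [6.23 to 7.16] of the gained, 0.77 percentage points apart [0.16 to 1.38] and by source name 0.12 points [-0.32 to 0.56], with 5.22% and 5.85% for its reversed letters. The E2A box CAGCTG stood in 20.7% of lost and 18.3% of gained peaks, and the PU.1 pattern GAGGAAGT in 6.54%, 7.34% and 6.55% of lost, retained and gained peaks. Within peaks of WT pre-proB alone PU.1 stood in 8.59% [7.97 to 9.26] of the lost and 11.5% [10.3 to 12.9] of the retained. The composite of PU.1 and IRF factors, GGAANTGAA, stood in 4.68%, 4.69% and 4.32% of lost, retained and gained peaks. The MEF2 pattern CTAAAAATA was rarer, at 0.759%, 0.587% and 0.396%. The pattern CCGGAAGT of ETS factors, the family Erg belongs to, stood in 0.474%, 1.51% and 0.350%, and so was most frequent in peaks that stayed. Its reversed letters stood in 0.748%, 0.825% and 0.902%. The pattern holds the step CG, and its reversed letters hold GC in that place. They are therefore not a matched measure of base composition for this pattern. Retained peaks also touched promoters more often, at 20.3% against 6.20% of lost and 4.19% of gained peaks. The part of promoters in the ETS shares was not tested.

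The CTCF core CAGNNGGC stood in 18.6%, 23.9% and 18.9% of lost, retained and gained peaks, and the KLF pattern CCNCNCCC in 19.7%, 29.0% and 19.6%. Retained peaks were richer in G and C, with a median of 50.7% over these windows against 47.8% in both lost and gained peaks. For KLF the reversed letters followed with 17.4%, 25.8% and 17.4%. The NF-kB pattern GGGANTTCC stood in 1.11%, 1.24% and 1.04%, the GATA pattern AGATAAG in 2.21%, 1.90% and 2.21%, and the STAT pattern TTCNNNGAA in 6.27%, 5.67% and 6.13%. The FOXO pattern TGTTTAC at 2.48%, 2.60% and 3.10% and the TCF-LEF pattern CTTTGAT at 2.48%, 2.27% and 2.77% were, like STAT, below their reversed letters in each of the 3 classes. The intervals of lost and gained peaks overlapped for CTCF, KLF, NF-kB, GATA, STAT and TCF-LEF.

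**Figure D5:**
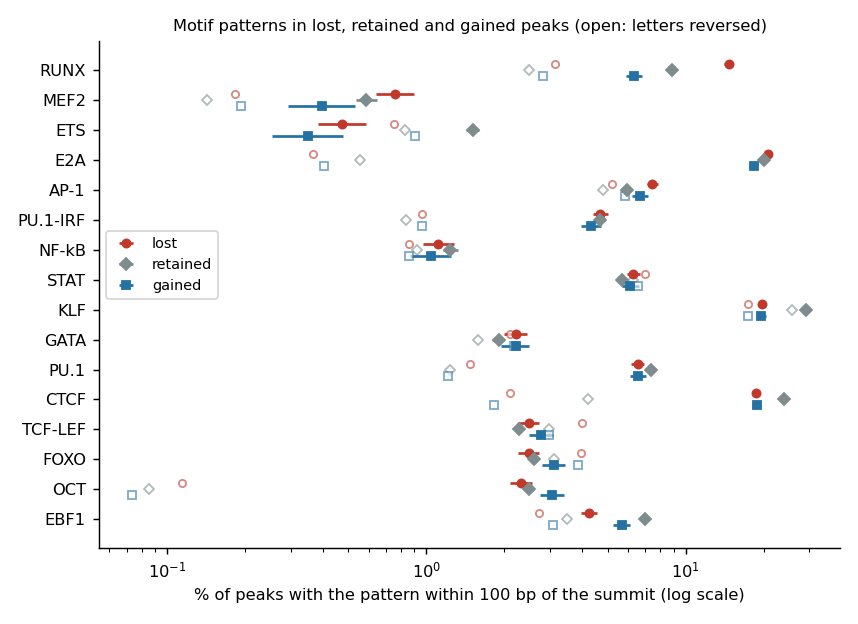
Share of lost, retained and gained peaks with each of 16 patterns within 100 bp of the summit (filled markers, Wilson 95% intervals; horizontal log axis, %), and with the same letters reversed (open markers). RUNX is at 14.7% in lost and 6.34% in gained peaks, and EBF1 at 4.23% and 5.67%.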

How the data were processed

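ATAC-seq had been run on sorted mouse bone marrow cells, 1 library in each of 7 groups, 2 of which are compared here. Per the submitters' processing notes and the study's methods, reads were called with CASAVA 1.8.2, aligned to mm10 with Bowtie2 and given to MACS2 for peak calling, and Picard is named without a role. The sources used here state no options, no treatment of duplicates and no further versions. The methods name sonication and the labels Tn5, and neither changes what was computed. The called lists fix which weak peaks exist, so shares of lost and gained peaks depend on depth and threshold.

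The authors deposited 1 list per library. The score deposited by the authors ranked peaks. The fold, a ratio of summit pileup to background, and the −log10 q of the summit deposited by the authors described strength within a list, and the −log10 p they deposited was not needed. The summit offset deposited by the authors centred the motif windows. Read totals are unknown. Folds were whole multiples of 1 step per library (100.0% of peaks), which gave background pileups of 3.49 to 4.60 fragments.

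Peaks were compared by overlap of at least 1 bp, on coordinates counted from 1. GENCODE M21 gave TSS of coding, immunoglobulin and T-cell receptor genes, and GRCm38.p6 gave the bases, after all peaks were checked to lie within its chromosomes. Promoter folds compared the strongest proB promoter peak with the preB peak overlapping it. Overlap and motif code was tested on simulated data. Python 3.11.15, pandas 2.3.3, NumPy 2.4.6, SciPy 1.17.1 and pysam 0.24.0 were used. With 1 library a side no test was possible, and Wilson 95% intervals cover counting error only.

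The members, lists and patterns were chosen with earlier results of these data known. Genes were named by rule: those of 14 lists with a promoter peak in 1 of the 2 Erg Rescue libraries, with 3 or more lost or gained peaks, or used in the sort, the 10 genes with the largest net loss and the 10 with the largest net gain, the 5 highest scoring lost and gained peaks, and the antigen receptor loci. Results of 3 of the named genes are not reported here. List genes given for their promoter fold were picked after the values were seen. Alternatives were list length, threshold, overlap, distance, loci, promoter and motif windows, gene assignment and stage labels.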

Additional observations from a re-analysis of the deposited data

Results flagged for a closer look

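A result is given here where the number of peaks went 1 way from proB to preB in Erg Rescue and the other way in WT. None of these differences was tested, since each genotype had 1 library per stage. The lists also shortened from proB to preB, from 91471 to 84453 peaks in Erg Rescue and from 91668 to 76465 in WT. The part of list length in the changes below was not tested. The Igh locus had 23 more peaks in Erg Rescue preB than in Erg Rescue proB, and 59 fewer in WT preB than in WT proB (a change of -59). The joint Tcra and Tcrd locus had 2 more in Erg Rescue and a change of -25 in WT. Peaks nearest to Eepd1 changed by -15 in Erg Rescue and by 1 in WT. Promoter peaks of the stem and progenitor list changed by 1 in Erg Rescue, through Ly6a, and by -1 in WT.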

How the results depend on the processing

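With 1 library per group the limits are the depth of each list and the labels. A place without a peak could hold up to about the lowest called pileup, 10 to 12 fragments. Without chromosomes X and Y, contigs and the antigen receptor loci, every share stayed within its interval. No paired analysis was possible because each group had 1 library and no result comes from a test.

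Lists cut to equal length by score gave equal lost and gained shares of 15.8% and 15.8%, with 69.6% of lost peaks in WT pre-proB, 49.2% of gained peaks in WT preB and 42.7% in WT proB. The strongest 40000 peaks of each library gave a lost share of 12.6% and a gained share of 12.8%, with 69.1% in WT pre-proB and 14.8% in WT preB, 68.8% of gained peaks in WT preB and 29.8% in WT proB, and 270 promoters lost against 207 gained. Peaks with a −log10 q of at least 10 gave a lost share of 7.15% and a gained share of 3.16%, with 84.1% and 8.63% of lost peaks in WT pre-proB and WT preB, 80.5% and 47.7% of gained peaks in WT preB and WT proB, 123 promoters lost and 39 gained, and pattern differences of -3.60 (EBF1) and 2.26 (AP-1) points. A reciprocal overlap of 50% gave shares of 25.6% and 19.4%, and 40.5%, 14.5%, 43.4% and 32.9% for lost peaks in WT pre-proB and WT preB and gained peaks in WT preB and WT proB. Peaks within 500 bp taken as shared gave 17.1% and 10.8%, and 67.4% (lost in WT pre-proB), 49.2% (gained in WT preB) and 39.5% (gained in WT proB).

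Stages by source name compare the libraries titled Erg Rescue pre-proB and proB. They gave a lost share of 33.1% and a gained share of 21.8%, with 6.24% of lost peaks in WT preB, 64.5% of gained peaks in WT preB and 73.0% in WT proB, and pattern differences of -11.54 (EBF1) and 0.12 (AP-1, -0.32 to 0.56) points. Promoters lost and gained turned to 447 and 518.

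The RUNX difference, with alternatives chosen after seeing the data, was 8.32 points and between 5.29 by source name and 14.39 for peaks with a −log10 q of at least 10. Counting peaks in the gene body and 10000 bp on either side moved the difference of gained minus lost peaks by over 1.5 times at 14 of the 20 genes with the largest net change and reversed it at 2, to 1 at Klf14 and to -4 at Zfp608.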
